A study of Mus musculus with 8 samples.

Results

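Transcripts of 41 skeletal muscle genes, covering the sarcomere apart from its myosin heavy chains, calcium handling, energy metabolism, the nerve-muscle junction and muscle-forming transcription factors, were examined in the eyecups of Bbs8-deficient mice. Members were taken by gene symbol from the 31053 Ensembl genes counted in each library, and each of the 41 symbols had exactly 1 gene identifier. Of these genes, 39 had a level of 1 CPM (counts scaled to a common library size of 1e6) or more in 4 or more libraries and were tested, while Myl3 and Myod1 did not reach that level. Libraries were made with the QuantSeq 3′ kit, which is designed to read the 3′ ends of mRNAs. The counts do not show where in a gene the reads fell. All mice were of the C57/Bl6 strain and 11 days old after birth (P11). The groups were 4 wild type littermate controls (Bbs8+/+) and 4 Bbs8 knockouts (Bbs8-/-), with no treatment in either group. The methods count each animal as a biological replicate. The labels call the samples RPE eyecups, where RPE is the retinal pigment epithelium. The study's text speaks of RPE specimens, and its methods describe both the peeling of RPE sheets and the extraction of RNA from eyecups freed of surrounding muscle and fat, without stating which of them fed these libraries. Bbs8, annotated as Ttc8, encodes a subunit of the BBSome, a complex that carries membrane proteins to and from cilia.

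In striated muscle, thin filaments of actin slide past thick filaments of myosin. Calcium released from the sarcoplasmic reticulum binds troponin C, troponin I lets go of actin, and tropomyosin moves aside. Many of these proteins come in a fast and a slow form encoded by separate genes, so that the forms in use tell fast fibres from slow ones. The muscles next to an eyecup are the extraocular muscles, which insert on the sclera.

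The depth of the libraries was 1636725 to 2884983 counts in genes, with lower values on average in Bbs8-/- (two-sided exact permutation p = 0.0857, where n = 4 in each group). A floor of 3 counts corresponded to 1.04 to 1.83 CPM, and floors and intervals given here cover counting error only. The targeted gene, Ttc8, had 14.6 to 21.6 CPM in the Bbs8+/+ libraries and 2.29 to 9.70 CPM in the Bbs8-/- libraries, without overlap (log2 fold change -1.95, edgeR FDR 2.74e-06). All 9 RPE marker genes passed the filter, among them Rpe65 with 1998 ± 98.4 and 1824 ± 81.5 CPM and Rgr with 2095 ± 87.8 and 2168 ± 25.4 CPM in Bbs8+/+ and Bbs8-/- (SD, n = 4 each). Best1 was scarce, with at most 10 counts in any library and 0 in 1 of them. CPM values are normalised by the TMM method throughout, and fold changes are Bbs8-/- over Bbs8+/+.

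Muscle transcripts were present in every library and were modestly more abundant in Bbs8-/-. Summed over the 41 genes, the level was 4399, 4302, 4552 and 4288 CPM in Bbs8+/+ replicates 1 to 4, and 4770.4, 4897, 4704 and 5178 CPM in Bbs8-/- replicates 1 to 4. The groups did not overlap, and the mean was 11.5% higher in Bbs8-/- (4385 ± 122 against 4888 ± 210 CPM, SD, n = 4 each). This sum is a description and was not tested. In these bulk libraries, more muscle tissue and more transcript per muscle fibre cannot be told apart. The sum still did not overlap without Ttn, which has the largest counts of the 41, or without the pair Neb and Tnnc2, but it did overlap when all 3 were left out (8.62% higher). These sums without single genes were chosen after the values had been seen.

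By edgeR's quasi-likelihood test adjusted over all 13813 genes tested, 2 of the 39 tested muscle genes were up-regulated at a false discovery rate (FDR) of 0.05, namely Neb and Tnnc2. That is 5.13% of the list, against a background of 1.1% of all tested genes that were up-regulated and 2.24% that changed in either direction. None was down-regulated by edgeR, where the background was 1.14%, or by DESeq2, and Actc1 was the 1 gene with a lower level at an unadjusted p under 0.05 (2.56% of the list against 6.6% of all tested genes). In the upward direction, 7 genes had an unadjusted p under 0.05, 17.9% of the list against 6.38% of all tested genes. On the log2 scale the fold change was above 0 for 26 of the 39 genes (66.7% against 49.5% of all tested genes) and below 0 for 13, with a median of 0.14 beside -0.0041 over all tested genes.

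**Figure D1:**
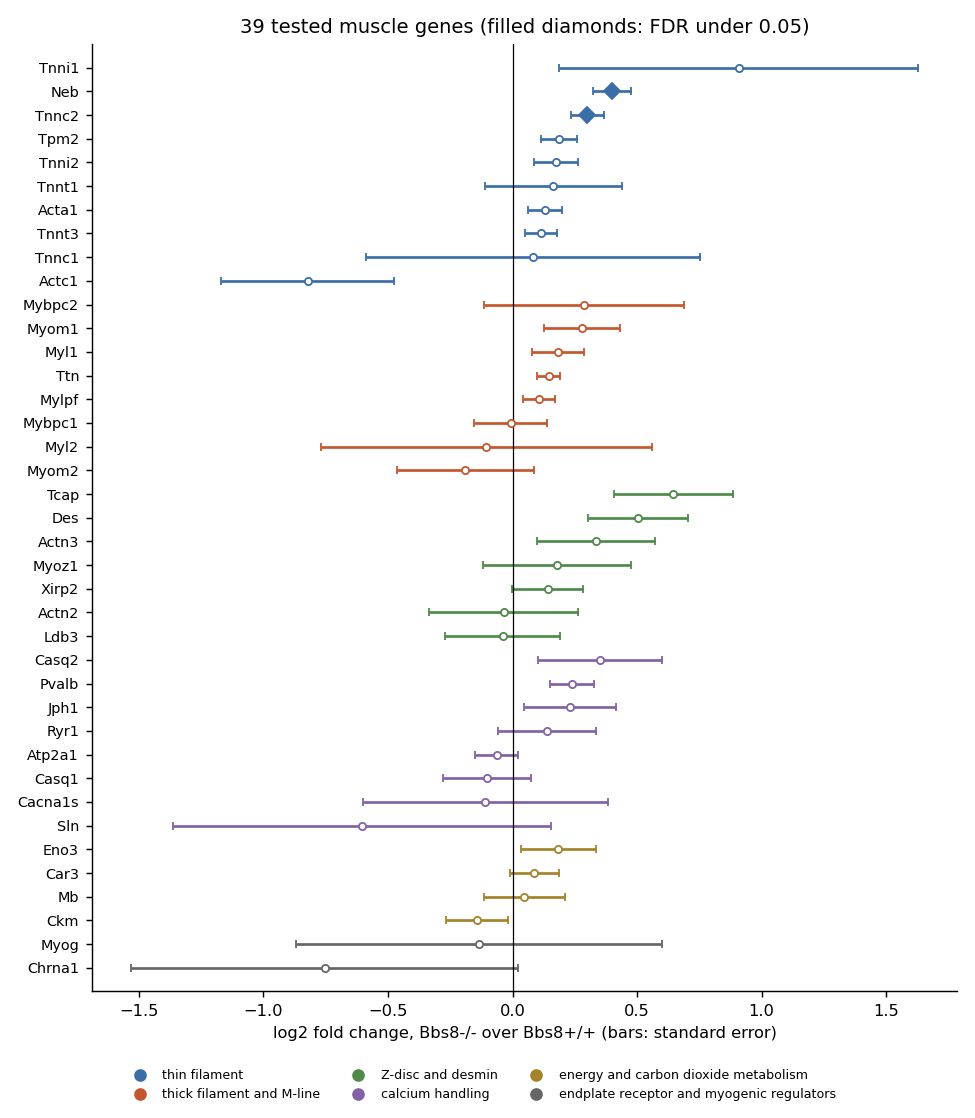
Log2 fold change of each of the 39 tested muscle genes, Bbs8-/- over Bbs8+/+, on the horizontal axis, with the standard error as bars and genes coloured by role. Filled diamonds mark Neb and Tnnc2, the genes past FDR 0.05, and the widest bars belong to genes with few counts such as Tnni1, Sln and Chrna1.

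Thin filament genes held both calls. Neb (ENSMUSG00000026950, mm10 chromosome 2, 52136647 to 52378474) encodes nebulin, a giant protein that runs along the thin filament and helps to set its length. The 4 Bbs8+/+ libraries had 209.8, 167, 206 and 189.9 CPM of Neb and the 4 Bbs8-/- libraries 249.9, 261, 237 and 269 CPM. Every Bbs8-/- library lay above every Bbs8+/+ library, a 1.32-fold rise (log2 fold change 0.40 ± 0.0767 SE, edgeR FDR 0.000135). Tnnc2 (ENSMUSG00000017300, mm10 chromosome 2, 164777161 to 164779967) encodes fast troponin C, the calcium sensor of fast fibres. It had 376, 354, 407 and 345 CPM in Bbs8+/+ and 454, 498, 374 and 497 CPM in Bbs8-/-. Bbs8-/- replicates 1, 2 and 4 were above all controls, but replicate 3 fell within their range. Tnnc2 rose 1.23-fold (log2 fold change 0.30 ± 0.0658 SE, edgeR FDR 0.00137). The genes Neb and Tnnc2 passed the threshold in all 14 other settings examined, including those that left out each library in turn. The 3′ end of Tnnc2 lies inside the opposite-strand gene Ube2c, a cell cycle gene with 7.79 and 4.94 CPM in Bbs8+/+ and Bbs8-/-, and whether counting used the strand is not given in the sources used here.

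**Figure D2:**
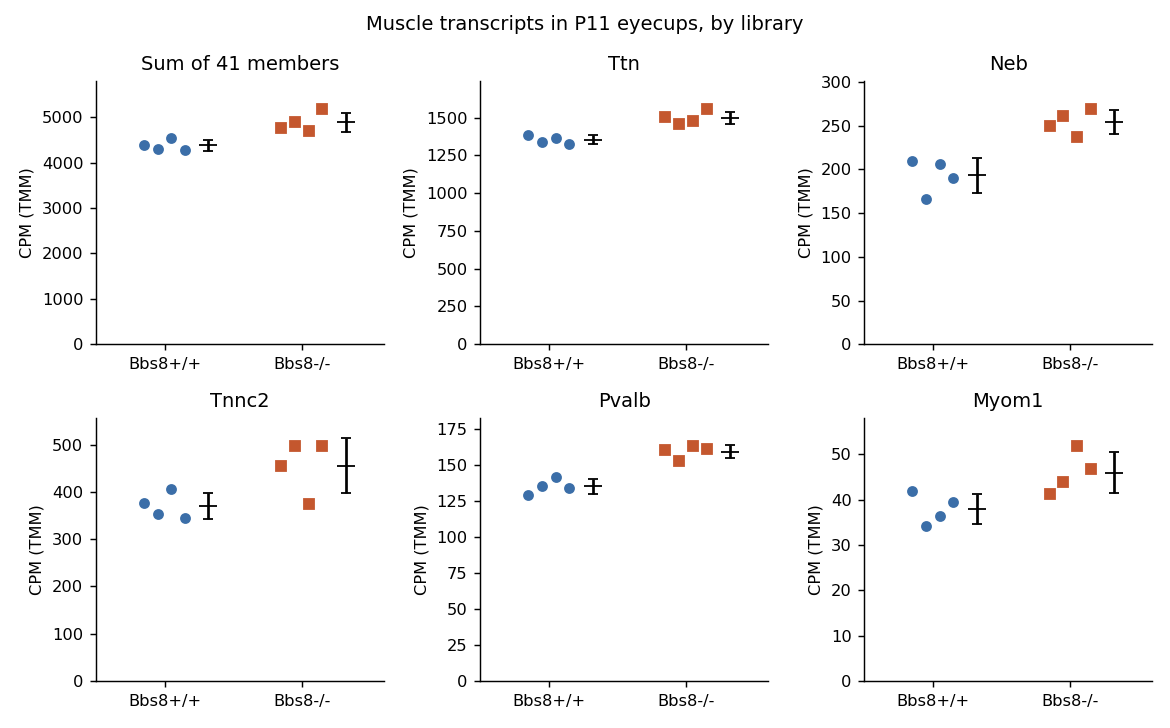
TMM-normalised CPM in each library (points, replicates 1 to 4 from left to right) with group mean and SD (black) for the sum of the 41 genes and for Ttn, Neb, Tnnc2, Pvalb and Myom1, with each vertical axis starting at 0. The groups are apart for the sum, Ttn, Neb and Pvalb, and overlap for Tnnc2, where Bbs8-/- replicate 3 had 374 CPM, and for Myom1.

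The other abundant thin filament genes had values that were slightly higher in Bbs8-/- and did not pass the test. Acta1, which encodes skeletal alpha-actin, had 301, 278, 314 and 319 CPM in Bbs8+/+ and 297, 365, 354 and 308 CPM in Bbs8-/-, with overlapping groups (log2 fold change 0.13, edgeR FDR 0.417). Tpm2, or beta-tropomyosin, which is also made by smooth muscle, had 278 ± 21.1 and 315 ± 34.9 CPM (0.19, edgeR FDR 0.183; SD, n = 4 each). The groups of Tpm2 overlapped. Fast troponin T, Tnnt3, had 347, 352, 381 and 316 CPM in Bbs8+/+ and 361, 386, 363 and 398 CPM in Bbs8-/- (0.11, edgeR FDR 0.478). Fast troponin I, Tnni2, had 135, 135, 144 and 128 CPM in Bbs8+/+ and 159, 148, 138 and 167 CPM in Bbs8-/- (0.17, edgeR FDR 0.399). At least 1 Bbs8-/- library lay within the control range for each of them. Actc1, the cardiac alpha-actin that developing skeletal muscle also uses, was the thin filament gene with a value below 0. It had 15.1, 10.2, 7.94 and 11.2 CPM in Bbs8+/+ and 1.21, 9.40, 5.50 and 8.40 CPM in Bbs8-/-. The groups overlapped, the lowest library was Bbs8-/- replicate 1 with 2 counts, and Actc1 did not pass the test (log2 fold change -0.82 ± 0.346 SE, edgeR FDR 0.26).

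The slow troponins were scarce. Slow troponin T, Tnnt1, had 8.19, 12.2, 12.6 and 14.3 CPM in Bbs8+/+ and 13.9, 11.5, 11.9 and 15.9 CPM in Bbs8-/-. Slow troponin I, Tnni1, had between 1 and 12 counts in any library, and the slow and cardiac troponin C, Tnnc1, had between 2 and 9. Tnni1 had 1.72, 0.786, 2.33 and 1.05 CPM in Bbs8+/+ and 2.43, 0.522, 2.29 and 5.6 CPM in Bbs8-/-. Tnnc1 had 2.58, 1.97, 1.40 and 3.14 CPM in Bbs8+/+ and 3.64, 2.09, 0.917 and 3.27 CPM in Bbs8-/-. The groups overlapped for both genes. Log2 fold changes were 0.91 ± 0.720 SE for Tnni1 (edgeR FDR 0.652) and 0.082 ± 0.669 SE for Tnnc1 (edgeR FDR 0.979). With standard errors this wide, a modest difference in either gene could be missed. The 3′ end of Tnnc1 also lies inside an opposite-strand gene, Nisch, with 247 and 248 CPM in Bbs8+/+ and Bbs8-/-.

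The promoters of the troponin C genes are shown because fast Tnnc2 passed the test and slow Tnnc1 is its counterpart, and that of Ttn because it gave the most counts. Each is the 250 bases before the RefSeq gene start on GRCm38.p6, written 5′ to 3′ on the strand of the gene, with the E-box letters CANNTG in capitals. E-boxes are the core sequence bound by MyoD and its relatives. Tnnc2 is at chr2:164779735-164779984 on the minus strand, Tnnc1 at chr14:31208062-31208311 on the plus strand and Ttn at chr2:76982548-76982797 on the minus strand. The start of Tnnc2 differs between annotations, and most of its window lies inside the gene as GENCODE M21 places it, whereas those of Tnnc1 and Ttn end where the GENCODE gene begins.
Tnnc2: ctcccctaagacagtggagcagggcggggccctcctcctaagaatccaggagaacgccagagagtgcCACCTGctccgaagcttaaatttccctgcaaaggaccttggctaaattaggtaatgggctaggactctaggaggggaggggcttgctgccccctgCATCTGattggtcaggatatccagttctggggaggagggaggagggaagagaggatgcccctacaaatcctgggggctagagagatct
Tnnc1: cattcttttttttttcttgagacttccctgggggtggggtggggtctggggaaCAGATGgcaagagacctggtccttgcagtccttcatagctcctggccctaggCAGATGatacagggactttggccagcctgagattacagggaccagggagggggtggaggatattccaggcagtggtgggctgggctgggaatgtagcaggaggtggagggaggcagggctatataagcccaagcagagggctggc
Ttn: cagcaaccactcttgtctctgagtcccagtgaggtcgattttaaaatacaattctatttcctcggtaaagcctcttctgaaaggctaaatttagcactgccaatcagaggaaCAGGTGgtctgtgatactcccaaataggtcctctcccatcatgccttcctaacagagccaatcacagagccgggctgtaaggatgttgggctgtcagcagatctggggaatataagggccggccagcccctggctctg

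Fast Tnnc2 and slow Tnnc1 each held 2 such E-boxes in this window and Ttn held 1. Of the 41 genes, 30 had a promoter entry, and 27 of these 30 (90.0%) held CANNTG against 69.3% of all 27025 genes with an entry. The form CAGCTG, which is 1 of the forms of CANNTG, was found in 14 of the 30 (46.7%) against 14.7% of all genes. MEF2 motifs were found in 4 of the 30 (13.3%, against 3.42%), including Ttn, Pvalb, Xirp2 and Casq2. CArG boxes, bound by serum response factor, were found in 5 of the 30 (16.7%, against 1.62%), namely Acta1, Actc1, Ldb3, Myl3 and Myom1. Both strands were searched, and a gene with several starts counted once if any window matched. These matches are descriptions of letters, and the motifs were chosen with the results known.

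Among thick filament and M-line genes, 0 of 8 tested passed FDR 0.05 by edgeR, and Ttn came closest and was the 1 with an unadjusted p under 0.05. Ttn (mm10 chromosome 2, 76703980 to 76982547) encodes titin, the elastic filament that spans from Z-disc to M-line. It had 1386, 1337, 1368 and 1328 CPM in Bbs8+/+ and 1502, 1461, 1474 and 1555 CPM in Bbs8-/-. All Bbs8-/- libraries were above all controls, with a log2 fold change of 0.15 ± 0.0451 SE (edgeR FDR 0.0629). Its FDR was 0.0129 with DESeq2 and 0.0479 after the filterByExpr filter, so its call depends on the test and filter, whereas its direction did not. Over the list, 3 of 39 tested genes had groups that did not overlap, all higher in Bbs8-/- (Neb, Ttn and Pvalb, 7.69% against a background of 3.62%), and 0 were lower without overlap (background 3.76%).

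The myosin light chains and binding proteins overlapped between the groups. Mylpf, the fast regulatory light chain, had 337, 367, 378 and 330.2 CPM in Bbs8+/+ and 371, 364, 374 and 409 CPM in Bbs8-/- (log2 fold change 0.11, edgeR FDR 0.511). Myl1, the fast essential light chain, had 88.3, 116, 106 and 90.8 CPM in Bbs8+/+ and 112, 120.1, 100.4 and 123 CPM in Bbs8-/- (0.18, edgeR FDR 0.466). The slow light chains were at or near the floor, with 1 to 11 counts per library for Myl2 and 0 to 4 for Myl3. Myl2 had 3.45, 4.32, 1.87 and 0.698 CPM in Bbs8+/+ and 0.606, 3.65, 3.21 and 1.87 CPM in Bbs8-/-. Mybpc1, the slow form of myosin-binding protein C, had 56.4, 49.9, 35.0 and 49.9 CPM in Bbs8+/+ and 52.2, 52.2, 42.6 and 44.8 CPM in Bbs8-/- (-0.01, edgeR FDR 0.992). Its fast relative Mybpc2 had 3.88, 3.54, 7.47 and 8.03 CPM in Bbs8+/+ and 6.06, 12.0, 5.50 and 4.67 CPM in Bbs8-/- (0.29, edgeR FDR 0.84), with overlapping groups. At the M-line, which ties thick filaments together, Myom1 had 38.0 ± 3.33 and 45.9 ± 4.53 CPM (0.28, edgeR FDR 0.449) and Myom2 had 13.5 ± 2.83 and 11.8 ± 3.17 CPM (-0.19, edgeR FDR 0.849; SD, n = 4 each).

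At the Z-disc, which anchors the thin filaments, none of 7 tested genes passed FDR 0.05 by edgeR, and 2 had an unadjusted p under 0.05. Tcap, or telethonin, which caps the end of titin, had 12.9, 14.9, 8.41 and 17.1 CPM in Bbs8+/+ and 24.3, 15.1, 21.1 and 24.3 CPM in Bbs8-/-. Des, the intermediate filament desmin, which smooth muscle also makes, had 22.0, 20.8, 14.9 and 26.2 CPM in Bbs8+/+ and 23.0, 41.2, 27.1 and 28.5 CPM in Bbs8-/-. The groups overlapped for Tcap and Des, with log2 fold changes of 0.65 (edgeR FDR 0.168) and 0.50 (edgeR FDR 0.22). Xirp2, an actin-binding repeat protein and the Z-disc gene with the highest mean, had 58.6, 51.1, 37.4 and 48.2 CPM in Bbs8+/+ and 61.3, 51.2, 52.3 and 51.8 CPM in Bbs8-/- (0.14, edgeR FDR 0.758). The alpha-actinin of all fibres, Actn2, had 9.91, 8.26, 11.7 and 13.3 CPM in Bbs8+/+ and 8.49, 6.79, 15.1 and 11.2 CPM in Bbs8-/-. That of fast fibres, Actn3, had 14.2, 14.2, 14.9 and 16.1 CPM in Bbs8+/+ and 20.6, 15.7, 19.7 and 19.1 CPM in Bbs8-/- (0.34, edgeR FDR 0.597). Only Bbs8-/- replicate 2 lay within the control range of Actn3. Ldb3 and Myoz1, which bind alpha-actinin, had log2 fold changes of -0.04 and 0.18 from mean levels of 10.7 to 18.7 CPM.

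Calcium handling genes were divided in direction, with 4 of 8 above 0 and 4 below 0 on the log2 scale, and 0 passed FDR 0.05 by edgeR. Pvalb, or parvalbumin, a calcium buffer of fast fibres that some neurons also make, had 129, 135, 142 and 134 CPM in Bbs8+/+ and 160.1, 153, 163 and 161 CPM in Bbs8-/-. The groups did not overlap, and Pvalb was the 1 calcium gene with an unadjusted p under 0.05 (log2 fold change 0.24, standard error 0.0877, edgeR FDR 0.16). Atp2a1, the fast calcium pump SERCA1 of the sarcoplasmic reticulum, had 181, 160.0, 179 and 180.1 CPM in Bbs8+/+ and 144, 161, 154 and 207 CPM in Bbs8-/- (-0.06, edgeR FDR 0.833). Bbs8-/- held both the highest and the lowest library for Atp2a1. Its 3′ end also lies inside an opposite-strand gene, Rabep2, with 12.8 and 13.7 CPM in Bbs8+/+ and Bbs8-/-. The calsequestrins, which store calcium in the reticulum, overlapped as well. Casq1, the fast form, had 31.9, 46.0, 31.8 and 25.8 CPM in Bbs8+/+ and 27.3, 32.4, 34.4 and 31.3 CPM in Bbs8-/- (-0.10). Casq2, the slow and cardiac form, had 9.91, 12.6, 15.4 and 17.8 CPM in Bbs8+/+ and 14.6, 15.1, 17.4 and 23.8 CPM in Bbs8-/- (0.35, edgeR FDR 0.595). The release channel Ryr1 had 24.3 ± 3.93 and 26.8 ± 3.69 CPM, and Jph1, which holds the reticulum against the cell membrane, had 27.0 ± 3.48 and 31.6 ± 4.73 CPM (SD, n = 4 each). Cacna1s, the voltage sensor coupled to Ryr1, had 7 to 13 counts per library, and Sln, a small inhibitor of the calcium pump, had 0 to 9.

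The 4 metabolic genes overlapped between the groups and 0 passed FDR 0.05 by edgeR, with 0 at an unadjusted p under 0.05 and 0 by DESeq2. Car3, a carbonic anhydrase of slow fibres and fat, had 104, 93.6, 109.7 and 121 CPM in Bbs8+/+ and 109, 108, 118 and 120.0 CPM in Bbs8-/- (log2 fold change 0.09). Ckm, the muscle creatine kinase, had 63.3, 70.4, 70.5 and 71.6 CPM in Bbs8+/+ and 60.0, 65.3, 51.8 and 72.8 CPM in Bbs8-/- (-0.14, edgeR FDR 0.705). The oxygen carrier myoglobin, Mb, had 37.9 ± 8.54 and 39.2 ± 2.61 CPM, and Eno3, the muscle enolase of glycolysis, had 41.1 ± 5.14 and 46.6 ± 5.46 CPM (SD, n = 4 each). While the summed levels of thin filament, thick filament and Z-disc genes were 15.4%, 10.0% and 19.2% higher in Bbs8-/- without overlap, those of calcium and metabolic genes were 5.59% and 2.76% higher and overlapped. These last values rest on few libraries. Without Bbs8-/- replicate 4 they were 1.02% and -0.18%, and the metabolic value was -0.58% without Bbs8+/+ replicate 1 and between 4.46% and 4.75% without Bbs8+/+ replicate 3 or 4 or Bbs8-/- replicate 3. The thin filament sum includes the called genes Neb and Tnnc2, and most of the thick filament sum was Ttn, so these sums rest in part on few genes. Whether these role groups differ from each other was not tested.

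Genes of muscle formation and of the endplate were almost absent. Myod1, a master regulator of the muscle lineage, had 0 counts in 5 of 8 libraries and at most 3 in any. Myog, which acts as muscle cells differentiate, had 1 to 6 counts, and Chrna1, a subunit of the acetylcholine receptor of the endplate, had 1 to 15, with the highest in Bbs8+/+ replicate 4. Chrna1 had 0.862, 0.786, 1.40 and 5.24 CPM in Bbs8+/+ and 0.606, 0.522, 1.38 and 2.33 CPM in Bbs8-/-. Log2 fold changes were -0.13 for Myog and -0.75 for Chrna1, with standard errors of 0.736 and 0.776. Neither passed the test (edgeR FDR 0.969 for Myog and 0.766 for Chrna1), and Myod1 was not tested. With standard errors this wide, a modest difference could be missed.

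Fast and slow isoforms were then compared, as a question about fibre type. Over the 11 fast genes the median was 0.18 on the log2 scale, with 9 fold changes above 0 (81.8% against 49.5% of all tested genes) and 1 gene, Tnnc2, called higher (9.09% against 1.1%). The 7 slow genes, 6 of them tested, had a median of 0.12 with 4 above 0, 0 called by edgeR or DESeq2 and 0 at an unadjusted p under 0.05. Summed levels overlapped between Bbs8+/+ and Bbs8-/- for each, at 1684 ± 94.6 and 1874 ± 121 CPM for fast genes and 80.2 ± 8.01 and 87.6 ± 7.65 CPM for slow genes (SD, n = 4 each). These means were 11.3% and 9.14% higher in Bbs8-/-, but the slow value was 4.13% without Bbs8+/+ replicate 3 and 5.17% without Bbs8-/- replicate 4, and whether fast and slow genes differ was not tested. The slow median rests on few counts, and it was 0.043 without Bbs8-/- replicate 4, 0.057 without Bbs8+/+ replicate 3, 0.28 without Bbs8+/+ replicate 4 and 0.29 without Bbs8-/- replicate 3.

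The share of the fast gene was then taken in the reads of each of 8 isoform pairs. In 7 of them a gene listed here as fast was set against a gene listed as slow. Actn3, listed as fast, was set against Actn2, which all fibres use. These labels come from general knowledge, and whether each gene is confined to 1 fibre type was not tested. Since 3′ sequencing is designed to read about 1 end per transcript, these shares are of reads and are not divided by length. Fast troponin T made up 97.7%, 96.7%, 96.8% and 95.7% of the Tnnt3 and Tnnt1 reads in Bbs8+/+, and 96.3%, 97.1%, 96.8% and 96.2% in Bbs8-/-. Fast troponin I made up 98.9% ± 0.453 and 98.3% ± 1.19 of Tnni2 and Tnni1, and fast troponin C 99.4% ± 0.235 and 99.5% ± 0.244 of Tnnc2 and Tnnc1 (SD, n = 4 each). Mylpf made up at least 98.8% of its pair with Myl2, and Myl1 at least 98.4% of its pair with Myl3. In these 5 pairs the fast gene gave at least 95.7% of the reads in every library of either genotype.

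The other 3 pairs were mixed. Mybpc2 made up 11.1% ± 5.52 of its pair with the slow gene Mybpc1 in Bbs8+/+ and 12.5% ± 4.22 in Bbs8-/-, the 1 pair in which the slow gene gave most of the reads. Actn3 made up 58.2% ± 3.70 and 65.1% ± 6.62 of its pair with Actn2, from 43 to 84 reads per library. Casq1 made up 70.3% ± 8.86 and 64.1% ± 5.04 of its pair with Casq2 (SD, n = 4 each). In all 8 pairs the groups overlapped. The difference in Mybpc2 share turned negative without Bbs8-/- replicate 2 or Bbs8+/+ replicate 1 or 2, and that in Casq1 share was -3.48 percentage points without Bbs8+/+ replicate 2 and -9.92 without Bbs8+/+ replicate 4. With reads divided by the length of the longest annotated transcript, the shares were 99.6% and 99.3% for Tnni2, 11.9% and 13.4% for Mybpc2, and 76.5% and 71.2% for Casq1 in Bbs8+/+ and Bbs8-/-. No share was tested. Counting error alone is wide in the mixed pairs, as for Actn3 in Bbs8-/- replicate 1, where 70.8% has a 95% exact Clopper-Pearson interval of 55.9% to 83.0%.

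**Figure D3:**
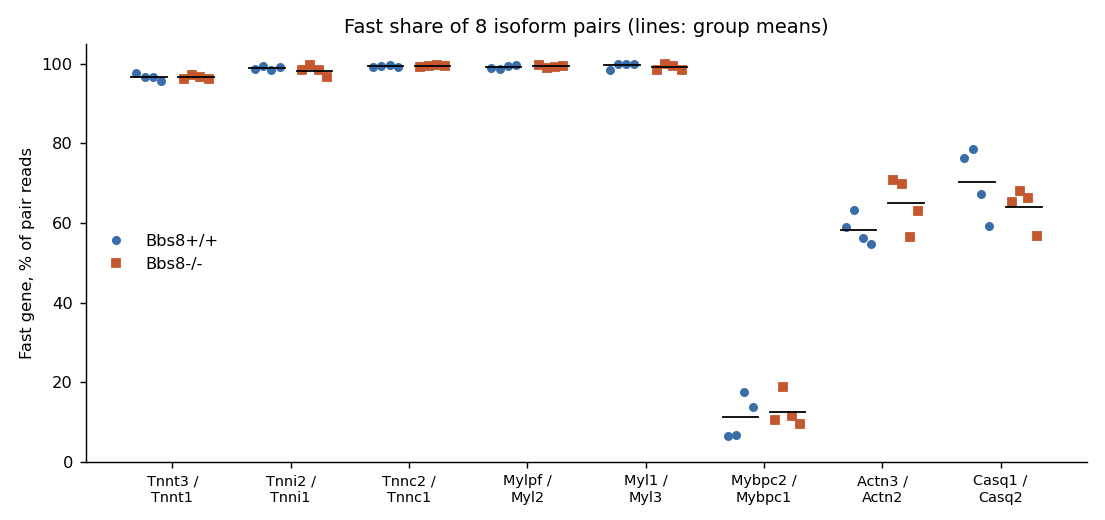
Share of reads from the fast gene in each of 8 isoform pairs (vertical axis, percent from 0) for the 4 Bbs8+/+ (circles) and 4 Bbs8-/- (squares) libraries, with group means as lines. The troponin and myosin light chain pairs lie above 95% in all libraries, Mybpc2 lies below 20%, and Actn3 and Casq1 lie between.

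The coefficient of variation of the summed level over all 8 libraries was 6.73%, and for the 22 tested muscle genes with a mean of at least 20 CPM it had a median of 12.6% per gene, beside 13.6% over the 6626 tested genes at that level. The muscle genes together took between 0.426% and 0.509% of the gene counts of a library. Bbs8-/- replicate 4 was the highest library for 16 of the 39 tested genes, while the other libraries were highest for 1 to 5 each. Without that library the median log2 fold change of the list was 0.096 in place of 0.14, and Neb and Tnnc2 still passed FDR 0.05 by edgeR.

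Other skeletal muscle genes gave a mixed pattern. Of 79 further genes of sarcomere, excitation, metabolism, endplate and myogenesis, 63 were tested, 2 were up-regulated and 1 was down-regulated at FDR 0.05 by edgeR, with a median log2 fold change of 0.03. That is 3.17% upward and 1.59% downward, against 1.1% and 1.14% of all tested genes. Up-regulated Tpm1, alpha-tropomyosin, a thin filament gene that many other cells also express, had 728 ± 24.2 CPM in Bbs8+/+ and 834 ± 47.6 CPM in Bbs8-/- (log2 fold change 0.20, edgeR FDR 0.0186), a call kept in 9 of 14 other settings. Mef2c, a transcription factor of muscle, vessels and neurons, rose from 217 ± 25.7 to 278 ± 6.41 CPM (0.36, edgeR FDR 0.000406; SD, n = 4 each). The 26 other sarcomere and Z-disc genes had a summed level that was 14.3% higher without overlap, but most of that sum came from Tpm1 and from Tpm3, another widely expressed tropomyosin with 193 ± 16.1 and 229.5 ± 11.4 CPM (0.25, edgeR FDR 0.0601). The median log2 value of this list was 0.052, with 15 of 23 tested genes above 0. The 15 other excitation and calcium genes summed to 370.4 ± 4.31 and 371 ± 11.5 CPM in Bbs8+/+ and Bbs8-/-, with a median of -0.09. The 16 other metabolic genes had a median of 0.22 and sums that overlapped, at 303 ± 24.1 and 328 ± 10.7 CPM (8.14% higher, or 5.09% without Bbs8+/+ replicate 1). Of the 13 tested, 0 passed FDR 0.05 by edgeR, while 4 were higher and 1 lower at an unadjusted p under 0.05. Sums of the 9 endplate genes (31.9 ± 2.37 and 31.9 ± 3.60 CPM) and the 13 myogenic genes (669 ± 22.9 and 672 ± 12.6 CPM) overlapped as well, with medians of 0.12 and -0.20 (SD, n = 4 each).

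Of the myosin heavy chains, which give fibres their type, Myh1 had 423 ± 6.07 and 423 ± 10.6 CPM in Bbs8+/+ and Bbs8-/-, and the perinatal form Myh8 rose, with 26.6 ± 3.01 and 49.7 ± 0.988 CPM in the same order (0.89 on the log2 scale, edgeR FDR 4.42e-05; SD, n = 4 each). The fast forms Myh4 and Myh2 overlapped between the groups and did not pass the test. Myh4 had 41.4 ± 4.75 and 27.2 ± 10.2 CPM (-0.59 on the log2 scale, edgeR FDR 0.0526), and Myh2 had 107 ± 13.8 and 127 ± 11.7 CPM (0.25, edgeR FDR 0.206; SD, n = 4 each). Of the 6 heavy chains tested, 4 had a fold change below 0, and the median was -0.11. The highest count was 12 for the slow form Myh7 and 6 for the extraocular form Myh13.

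Markers of cell types that share genes with skeletal muscle, or lie beside it, were measured in the same libraries. Smooth muscle and pericyte genes summed to 1676 to 1720.3 CPM in Bbs8+/+ and to 1489 to 1627 CPM in Bbs8-/-. Of 12 tested, 0 rose at FDR 0.05 by edgeR (0 at an unadjusted p under 0.05) and 1 fell, Rgs5, a pericyte gene, from 714 ± 27.2 to 598 ± 19.9 CPM (edgeR FDR 0.00086). Most of the fall in that sum was Rgs5. Among contractile genes of smooth muscle, Acta2 had 254 ± 8.25 and 272 ± 8.28 CPM without overlap (0.10 on the log2 scale, edgeR FDR 0.592), Tagln 53.1 ± 12.6 and 59.9 ± 4.80 CPM (0.19, edgeR FDR 0.627) and Myh11 138 ± 15.8 and 131 ± 19.2 CPM (-0.07, edgeR FDR 0.824; SD, n = 4 each). The part of smooth muscle in Tpm2, Des and the other genes it shares with skeletal muscle was not tested. Cardiac markers were low, with Nppb and Myl7 at 0 in all libraries and 4 of 8 markers at no more than 3 counts in any, and the list summed to 5.6 to 14.2 CPM in Bbs8+/+ and to 6.07 to 12.0 CPM in Bbs8-/-. Most of that sum was Ryr2, the cardiac release channel that neurons also make, with 5.07 ± 2.98 and 6.26 ± 2.86 CPM (SD, n = 4 each). Of 8 fat cell markers, which bear on Car3, Adipoq, Cfd, Cidec and Lep were at 0 in all libraries, and Plin1 and Retn had at most 3 counts. Lipe, the hormone-sensitive lipase, had 13.3 ± 4.76 and 16.9 ± 3.59 CPM and Fabp4, a fatty acid carrier that vessels also make, 9.56 ± 3.19 and 6.05 ± 2.08 CPM (SD, n = 4 each), and the list summed to 19.3 to 28.9 CPM in Bbs8+/+ and to 15.4 to 27.7 CPM in Bbs8-/-. The part of fat cells in the level of Car3 was not tested. Tenomodulin, Tnmd, a marker of tendon, had 323 ± 22.1 and 373 ± 51.8 CPM (log2 fold change 0.20, edgeR FDR 0.109), while the whole list of tendon and scleral connective tissue, dominated by Col1a1 and Col1a2, ranged from 27144 to 28629 CPM in Bbs8+/+ and from 19596 to 20907 CPM in Bbs8-/-, with 2 of 8 tested genes lower and 0 higher at FDR 0.05 by edgeR (1 higher at an unadjusted p under 0.05, Tnmd).

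Lists of other tissues of the eye moved as well. The 10 lens genes summed to 201 to 239.8 CPM in Bbs8+/+ and to 477 to 511 CPM in Bbs8-/-, with 5 called higher, Cryaa, Cryba1, Crygb, Crygc and Crygd. The 8 photoreceptor genes ranged from 398 to 428 and from 256 to 326 CPM, with 2 called lower, and the 6 genes of nerve myelin from 381 to 438 and from 279 to 338 CPM, with 3 called lower. The 5 red blood cell genes were 9.45% higher and overlapped, with the near-identical globin genes Hba-a1 and Hba-a2 called higher. The 9 RPE genes were 1.96% higher and overlapped, with Pmel, a pigment granule gene, called lower. Most of the RPE sum was Ttr, with 10937 ± 513 and 11657 ± 61.6 CPM in Bbs8+/+ and Bbs8-/- (SD, n = 4 each). As percentages, the differences of lens, photoreceptor and myelin genes (130.2%, -26.3% and -22.1%) were larger in size than the 11.5% of the muscle genes. The part of these other tissues in the muscle result was not tested.

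**Figure D4:**
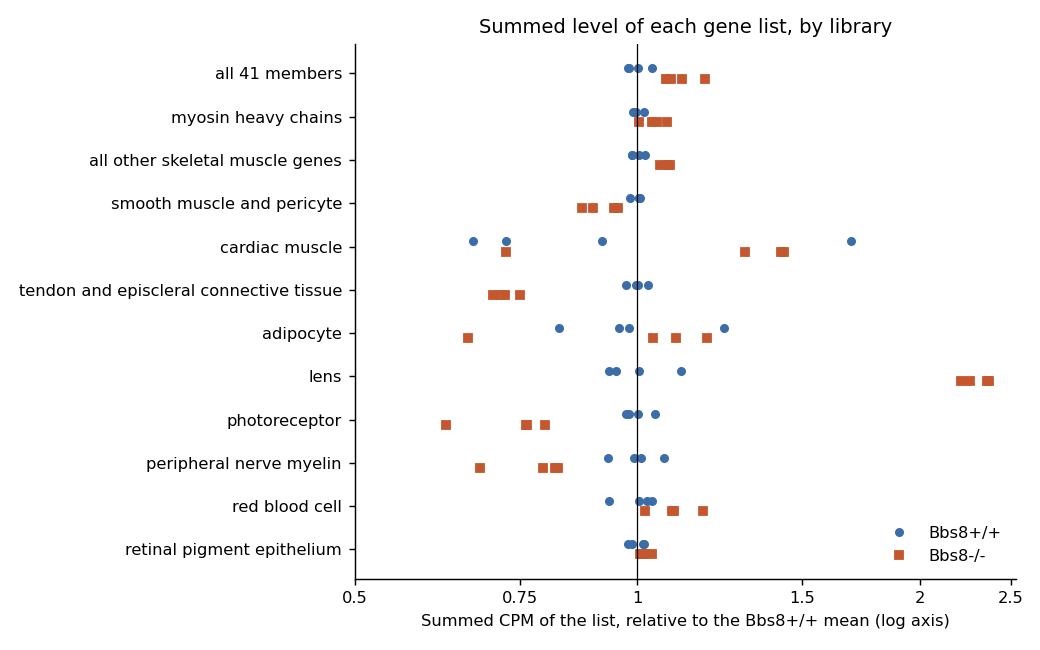
Summed CPM of each gene list in each library, divided by its Bbs8+/+ mean, on a logarithmic horizontal axis, with Bbs8+/+ as circles and Bbs8-/- as squares. The muscle genes of Bbs8-/- lie just above 1 without overlap, lens genes lie above 2, and photoreceptor, myelin, connective tissue and smooth muscle genes lie below 1.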

How the data were processed

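RNA from the P11 samples of 8 mice was sequenced from the 3′ end. The authors trimmed the reads with BBDuk, aligned them with STAR to mm10 and counted them with htseq-count; the deposited values are whole read counts for each gene, not normalized, from reads with 1 alignment, in 1 file per library. The 5 summary lines that close each file name no gene and were left out. Of uniquely aligned reads, 42.1% to 43.4% lay outside annotated genes in Bbs8+/+ and 44.1% to 44.4% in Bbs8-/-, without overlap. The part of this difference in the muscle result was not tested. Ambiguous reads were 0.309% to 0.323% of uniquely aligned reads. Of 31053 gene identifiers, 30934 had a symbol in GENCODE M21, which uses the same assembly, and 119 did not. Promoter windows came from RefSeq (GRCm38.p6).

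Genes that reached 1 CPM in 4 or more libraries entered the test, made with edgeR 4.0.16 (R 4.3.3), TMM normalization and a quasi-likelihood F test with genotype as the only factor, two-sided, with Benjamini-Hochberg adjustment and FDR 0.05. The study's methods name edgeR, generalized linear models, this FDR and a filter at 1 CPM; the number of libraries in the filter, TMM and the F test were chosen here, and the second part of the study's filter, on multiply mapped reads, was not applied. Standard errors are the log2 fold change divided by the square root of F. The procedure was tested on simulated data. The alternatives were RLE factors, library totals only, filterByExpr, no filter, DESeq2 1.42.0, a replicate block and leaving out each of 8 libraries. No identical files were found, and libraries of a group differed by more than Poisson noise (chi-square per degree of freedom 1.87 to 3.08). The 41 muscle genes, the other lists and the pairs were chosen with earlier results of these data known, and the lists were written from general knowledge. Values in every library are given for genes past FDR 0.05, for genes of the isoform pairs that passed the filter and for the most abundant gene of each role; sums without single genes or libraries and shares per transcript length were added after seeing the data. No set test was run. Some genes of the other lists that passed the test are not reported here.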

Additional observations from a re-analysis of the deposited data

Results flagged for a closer look

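Of 96 groups of 4 libraries, over the tested muscle genes, their sum and the pair shares, 6 held a library far from the other 3 by Dixon's ratio at its 95% critical value, where chance gives about 4.8. In Bbs8+/+, the replicate 1 level of Ckm was 63.3 CPM, where the other 3 libraries had 70.4 to 71.6 CPM, and the replicate 2 level of Atp2a1 was 160.0 CPM, where they had 179 to 181 CPM. Sln was 0 CPM and Chrna1 5.24 CPM in Bbs8+/+ replicate 4, against 3.02 to 3.54 and 0.786 to 1.40 CPM. The fast share of Myl1 with Myl3 was 98.6% in Bbs8+/+ replicate 1 against 100% in the others, from 3 counts of Myl3. In Bbs8-/-, replicate 1 had 61.3 CPM of Xirp2 and the others 51.2 to 52.3 CPM. None of these genes passed FDR 0.05, and no cause was tested.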

How the results depend on the processing

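Neb and Tnnc2 were the muscle genes up-regulated in all 14 alternatives, with log2 fold changes of 0.34 to 0.44 and 0.25 to 0.39, and Ttn joined them with filterByExpr and DESeq2. No muscle gene was down-regulated in any. Leaving out 1 library, the number of all genes lower in Bbs8-/- ranged from 101 (without Bbs8-/- replicate 1) to 150, the median log2 fold change of the muscle genes from 0.096 (without Bbs8-/- replicate 4) to 0.16, that of the slow isoforms from 0.043 to 0.29, and the difference in the fast share of Tnni2 with Tnni1 from -1.07 to -0.10 percentage points. The same difference changed sign for Tnnt3 (-0.46 to 0.22), Tnnc2 (-0.0018 to 0.18), Mylpf (-0.046 to 0.27) and Mybpc2 (-0.69 to 3.53), and kept it for Myl1 (-0.89 to -0.29), Actn3 (4.89 to 9.65) and Casq1 (-9.92 to -3.48). With the replicate number as a block, 2 muscle genes were higher and 0 lower, and 134 and 129 of all genes. Deviations of same-numbered libraries had correlations of -0.0284 to 0.0203 over 9035 genes, and the numbers were therefore not taken as pairs.

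The genes that changed sign passed FDR 0.05 in no setting. Mybpc1 was 0.011 with the block and ranged from -0.12 to 0.080 with 1 library left out. In the same way Actn2 ranged from -0.28 to 0.12, Tnnc1 from -0.13 to 0.37, Myl2 from -0.44 to 0.28, Mybpc2 from -0.090 to 0.51, Ldb3 from -0.18 to 0.088, Mb from -0.065 to 0.17, Casq1 from -0.22 to 0.088, Atp2a1 from -0.19 to 0.00048, Myoz1 from -0.047 to 0.38 and Myog from -0.53 to 0.12. The cause was not tested. Tpm1 lost its call in 5 fits without 1 library. Genes under about 3 CPM are limited by depth.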
